A study of Mus musculus with 2 samples.

Results

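The features described here are the array probes whose only annotation in the scanner files is an Ensembl mouse transcript accession, an identifier that starts with ENSMUST. They were chosen by that accession alone, with no use of a measured value, and number 2957 of the 55681 distinct non-control probes on the array. The RNA came from retinas dissected at postnatal day 12 from a wild-type group and from a group labelled Samd7 KO, with 1 one-colour Agilent array for each group. These are called the WT array and the KO array after their labels, and every difference is KO minus WT. The labels do not give the strain, the part of Samd7 that was removed, or the number of animals behind each RNA sample. With 1 array per group there was no test and no spread between animals, so each difference compares these 2 arrays only.

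Samd7 encodes a sterile alpha motif protein of photoreceptors that acts with Polycomb repressive complex 1, which keeps genes of other cell fates silent. Expression arrays carry Ensembl-annotated probes to reach transcripts that the curated RefSeq collection did not hold when the array was designed. Such transcripts are of mixed kinds, among them alternative forms of well-known genes, gene predictions, immune receptor gene segments and long noncoding RNAs. Others are processed pseudogenes, which are retrotransposed copies of abundant messenger RNAs, and this list is not complete. A probe against a pseudogene or a segment of a repeated family can also bind RNA from its relatives. Which of these or other kinds each probe belongs to is not known here. The scanner files used here pair the accessions with no gene symbol, position or probe sequence.

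The 2957 probes stood for 2796 distinct transcripts, of which 2647 had 1 probe, 138 had 2, 10 had 3 and 1 had 4. The gene tables used here hold no Ensembl transcript accessions, so no member could be given a gene name, and whether RefSeq holds these transcripts was not examined. Of their 3012 spots, the scanner software flagged 3 as outliers on the WT array and 6 on the KO array, and every probe kept a value on both.

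The series as a whole sets some limits. The 1 named Samd7 probe read 4.68 on the WT array and 6.47 on the KO array, in log2 signal relative to the array's 75th percentile, which is 3.44-fold higher on the array labelled KO. Where this probe lies relative to the deletion is not known here, so it does not check the labels. Defining retinal genes were well above background on both arrays, among them 8 of 8 rod markers, 11 of 11 cone markers, 8 of 8 bipolar markers and 7 of 7 Müller glia markers. Lens markers were present as well, 16 of 18 on the WT array and 18 of 18 on the KO array, and their summed linear level, in units of the 75th percentile, was 11.9 and 53.1 on the WT and KO arrays. That of 8 pigment epithelium markers was 29.8 and 22.0. The summed level of the rod markers was 989 and 796, and that of the cone markers 122 and 376, with 5 of the 11 at least 2-fold higher on the KO array. The part that lens, pigment epithelium or photoreceptor RNA has in the differences below was not tested.

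The Ensembl-annotated probes were detected about as often as the array's probes in general. Well above background, by the scanner software's own call, were 1716 probes (58.0%, exact 95% binomial interval 56.2% to 59.8%) on the WT array and 1747 (59.1%, 57.3% to 60.9%) on the KO array. Over all probes the shares were 59.3% and 59.98%, both inside these intervals, which cover counting over probes and say nothing of animals. On both arrays it was 1667 (56.4%), and on neither 1161 (39.3%). The all-probe share combines kinds of annotation that differ widely. Probes with a RefSeq NM accession were well above background in 74.7% and 75.01% of cases on the WT and KO arrays, RefSeq NR noncoding transcripts in 44.6% on each, predicted XM or XR transcripts in 49.6% and 49.4%, probes known only by a chromosome position in 40.5% and 41.7%, and probes with any other accession in 49.4% and 50.6%.

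Few probes changed their call between the arrays. The WT array alone called 49 (1.66%), against 2.06% of all probes, and the KO array alone called 80 (2.71%), against 2.72% of all probes. Both shares lay at or below the background.

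The Ensembl-annotated probes held more very bright members than the rest of the array. Among those above background on both arrays, 572 of 1667 (34.3%) had a mean level of 2 or more, which is at least 4 times the 75th percentile, compared with 21.6% of the other 30211 such probes. At a mean level of 6 or more the shares were 5.94% (99 probes) and 1.53%. The upper quartile of the level was 3.54 and 3.47 on the WT and KO arrays, compared with 1.63 on both arrays for the other probes, while the lower quartiles were close to those of the other probes (-3.04 on each array, against -2.95 and -2.96). Where most other probes thin out, the members did not: 263 of them had levels from 4 to 6 and 204 from 0 to 2, compared with 1787 and 6071 of the other probes.

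The brightest of these probes read nearly alike on both arrays. A_66_P101646, for transcript ENSMUST00000117219, gave processed signals of 152958 (WT) and 161516 (KO). Its level was 8.06 and 8.19, a difference of 0.13. A_55_P2053398, for ENSMUST00000078451, followed at levels of 8.05 and 8.15, a difference of 0.10. Over the 10 brightest the differences ran from -0.15 to 0.13, with 4 below 0, and no spot on either array was saturated. For scale, repeated spots of 1 probe gave differences with a pooled SD of 0.05 at levels above 0. It was 0.09 between -2 and 0, 0.19 between -4 and -2, and 0.37 for dimmer probes, over 317 probes well above background on both arrays.

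Differences between the arrays were small for most of the Ensembl-annotated probes. Of the 1667 with a measurement on each array, 1564 (93.8%) had a log2 difference under 0.5 in size, against 93.3% of the other probes. The median difference was -0.04 (quartiles -0.13 and 0.06), beside a median of -0.02 over all probes. The signs were uneven among bright probes: 74.0% of those at a mean level of 2 or more were lower on the KO array, with a median of -0.05, compared with 61.2% and -0.02 among other probes that bright. Whether this exceeds the spread between RNA samples was not tested, and the choice of scaling moved the median of all members between -0.04 and -0.01. The median over all probes moved too, between -0.02 and 0.01, and lay above the members' median under each setting. Levels on the 2 arrays correlated at a Pearson's r of 0.996 across these 1667 probes, which share arrays and are not replicates.

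At the threshold of 2-fold, 24 probes were higher and 41 lower on the KO array, out of 1796 above background on at least 1 array. These are 1.34% and 2.28%, against 1.82% and 2.0% of all probes, so neither share stood far from the background. Of the 24, 11 were measured on both arrays and 13 rest on a bound, which is used where 1 array gave no call. The bound sets the dim spot at its own value or at the dimmest called signal of its array, whichever is higher. Its fold is thus no larger than the measured one, and "at least" before a bound below has that sense only. It is not a strict limit, because some spots without a call read above that dimmest signal. Of the 41, 17 were measured on both and 24 rest on a bound. The dimmest called signal had a level of -5.39 on the WT array and -5.56 on the KO array. The rule could thus set a dim spot lower on the KO array, and its part in the counts was not tested. Among probes measured on both arrays alone, the 11 higher are 0.66%, against 1.05% of all probes, and the 17 lower are 1.02%, against 0.797%. With the measured difference in place of the bound the numbers were 45 higher and 47 lower. With the median pixel signal less the local background they were 48 and 39, so more members were then higher than lower. Counts over all probes are not given for these settings, so whether the shift is particular to the members was not tested.

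Differences of 8-fold or more were few on either side. At that size, 1 of 1796 probes was higher, by 16.6-fold and measured on both arrays, against 45 of 34544 over all probes (0.130%). On the lower side it was 6 of 1796, against 24 of 34544 over all probes (0.0695%), a larger share among the members. Of these 6, 5 rest on a bound: the 5 largest bounds on the lower side were at least 25.03-, 15.7-, 11.6-, 11.1- and 9.90-fold, and the 5 largest on the higher side at least 7.83-, 4.43-, 4.29-, 3.96- and 3.14-fold. Of the 6 lower probes 5 lie in rows 1 to 96 of the array, as do 22 of the 24 over all probes with 1 spot. Under normexp background correction, whose offset of 50 pulls dim differences toward 0, 6 higher and 8 lower probes were left at 2-fold, all of them in the sets above.

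Bright Ensembl-annotated probes seldom differed. Only 2 of the 776 with a mean level of 0 or more, measured on both arrays, were at least 2-fold apart (0.26%), against 0.958% of all such probes. The other 26 of the 28 probes that differed 2-fold with a measurement on both arrays had mean levels below 0. These were 10 of the 11 higher and 16 of the 17 lower, against 231 of 334 and 229 of 254 over all probes.

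The share of probes 2-fold apart moved with the place of the spot on the array, among the members and among all probes. The array has 384 rows of spots. In rows 1 to 96, 24 of 467 Ensembl-annotated probes with 1 spot were lower (5.14%), against 5.27% of all such probes there. In rows 97 to 192 it was 13 of 472 (2.75%, against 1.54%), in rows 193 to 288 it was 4 of 437 (0.92%, against 0.613%), and in rows 289 to 384 it was 0 of 416, against 0.388%. The share of lower probes thus fell with the row number in both. The higher side fell less steeply, and among the members it rose again in the last rows. In the same order it was 9 (1.93%, against 3.37%), 7 (1.48%, against 1.91%), 3 (0.69%, against 0.950%) and 5 (1.20%, against 0.910%). In rows 193 to 384 together, 8 of 853 Ensembl-annotated probes were higher and 4 were lower, so 37 of the 41 lower and 16 of the 24 higher probes lay in rows 1 to 192. Over all probes with 1 spot, 608 of 691 lower and 469 of 623 higher probes lay there. The members themselves were spread evenly, with 730, 791, 734 and 695 single-spot probes in the 4 blocks of rows, and their median difference lay between -0.05 and -0.04 in each. The part of the row in the 24 and 41 was not tested.

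Repeated spots also varied with the row, within each array. These are spots of probes printed at least 5 times, most of whose spots on an array were not well above background. On the WT array 29 of 260 such spots (11.2%) in rows 1 to 96 were nevertheless called well above background, and 4 of 259 (1.54%) in rows 289 to 384. On the KO array it was 24 of 257 (9.34%) in rows 1 to 96, 25 of 254 (9.84%) in rows 97 to 192, and 1 of 249 (0.40%) in rows 289 to 384. Among repeated probes with a median level of -2 or more, by contrast, 0 of 2300 WT spots and 0 of 2320 KO spots lay 2-fold or more from their probe's median, in any rows. Outlier flags on repeated spots did vary with the row. From rows 1 to 96 through rows 289 to 384 they numbered 8, 22, 17 and 3 on the WT array. On the KO array they numbered 5, 38, 21 and 2.

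Single probes illustrate both ranges. On the higher side A_55_P2156404, for ENSMUST00000096084, had the largest difference among probes measured on both arrays. It gave 112 ± 11.7 (WT) and 1800 ± 180.0 (KO) in processed signal, where ± is the scanner software's own error for the spot. In levels this is -2.35 and 1.70, a difference of 4.05 or 16.6-fold, which stayed between 3.52 and 4.08 under the other scalings and normexp. Repeated spots of other probes at its mean level had a pooled SD of 0.09, and the software's error of the difference was 0.21. The probe lies on row 194, just past rows 1 to 192. The brightest probe that was 2-fold higher, A_52_P615375 for ENSMUST00000108817, read 9734 and 23304. Its levels of 4.08 and 5.40 differ by 1.31 (2.48-fold), and it lies on row 17. Repeated spots of other probes at levels above 0 had a pooled SD of 0.05, and the software's error of this difference was 0.20.

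On the lower side A_52_P273865, for ENSMUST00000171119, had the largest difference measured on both arrays. It gave 139 ± 17.1 (WT) and 15.4 ± 3.28 (KO), with the software's errors. The levels of -2.05 and -5.17 differ by -3.11 (8.66-fold lower), but normexp gave -1.06, and the probe lies on row 20. The brightest probe that was 2-fold lower, A_55_P1985453 for ENSMUST00000058196, read 2100 and 953. Its levels were 1.87 and 0.78, a difference of -1.09 or 2.12-fold lower, and normexp gave -1.05. Repeated spots of other probes at levels above 0 had a pooled SD of 0.05, and the software's error of this difference was 0.20. The probe lies on row 170.

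The other extreme probes were mostly dim. Among the 15 lowest differences measured on both arrays, from -1.09 to -3.11, 14 had mean levels below 0, 14 lay in rows 1 to 192, and 3 stayed 2-fold apart under normexp. Among the 15 highest, from 0.90 to 4.05, 11 reached 2-fold, 13 had mean levels below 0, 8 lay in rows 1 to 192, and 6 stayed 2-fold apart under normexp. Over all probes 2-fold lower with a measurement on both arrays, 229 of 254 had mean levels below 0. Of those with 1 spot, 201 of 253 lay in rows 1 to 192. For all probes 2-fold higher these counts were 231 of 334 and 213 of 328.

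Transcripts with several probes allow the same transcript to be read from more than 1 spot. Of the 149 such transcripts, 76 had all probes well above background on both arrays, 37 had none on either, and 36 had mixed calls. In 79 transcripts at least 2 probes were measured on both arrays, and the range of the difference between them had a median of 0.07. It was under 0.5 in 73 of the 79 and reached 1 in 1 transcript, where A_51_P454707 gave -0.55 and A_55_P2183602 gave 0.95 for ENSMUST00000107750, at levels between -4.98 and -2.87.

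A 2-fold difference in 1 probe of a transcript was not matched by a counted difference in another. In 6 of the 149 transcripts a probe was at least 2-fold apart, always by a bound, and in 0 of the 6 was a further probe 2-fold apart by the same rule. The largest bound of the whole set is among them: 1 probe, on row 46, read -0.91 on the WT array and -6.49 on the KO array, at least 25.03-fold lower, while the other probe of that transcript, on row 330, was above background on neither array at -7.03 and -6.75. Likewise the largest bound on the higher side, at least 7.83-fold with levels of -7.33 and -2.42, belongs to a transcript whose other probe read -4.69 and -4.66 and was above background on both arrays. In 4 of the 6 the other probe was above background on neither array and so could not be counted. In 3 of the 6 its measured difference had the same sign, and in 1 of these it was of similar size: the counted probe was at least 3.09-fold lower, and the other read -6.03 and -7.73, a difference of -1.69 below background. The transcript with the most probes, ENSMUST00000175654, had 3 probes measured on both arrays, with differences of 0.28, -0.09 and -0.20, and a further probe above background on neither.

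Repeated printing of 1 probe gave the most precise values. 6 Ensembl-annotated probes were printed 10 times each, and 4 of them were well above background on both arrays. A_51_P213099, for ENSMUST00000133268, ranged from 3.20 to 3.31 on the WT array, with a median of 3.27, and from 3.25 to 3.37 on the KO array, with a median of 3.30. Its means differed by 0.03 and its spots overlapped. A_51_P117226, for ENSMUST00000049389, ranged from 2.57 to 2.72 (median 2.66, 9 spots left) and from 2.40 to 2.54 (median 2.48, 8 spots left), a difference of -0.18 with no overlap between the arrays.

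The dimmer repeated probes spread more. A_51_P115471, for ENSMUST00000089450, ranged from -2.93 to -2.59 (median -2.76) on the WT array and from -2.46 to -2.06 (median -2.27) on the KO array. Its mean was higher by 0.50, with an SD of 0.11 among the 10 spots on each array and no overlap. A_51_P485421, for ENSMUST00000103426, ranged from -4.78 to -4.45 and from -5.09 to -4.50, a difference of -0.10 with overlapping spots. The remaining pair, A_51_P116431 and A_51_P117903, had 0 spots well above background on either array, with spot SDs from 0.34 to 0.66. A_55_P2093624, for ENSMUST00000114000, was printed on 2 spots, and 0 of them were above background on either array. Spots of 1 array share their RNA, so these spreads are technical and none of the differences carries a test.

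The probe names fall into 5 series, which differed little in detection. The largest, A_55, held 2243 probes and was well above background in 58.8% and 59.7% of cases on the WT and KO arrays. The 315 probes of A_52 stood at 57.1% and 58.4%, the 207 of A_66 at 54.1% and 57.0%, and the 172 of A_51 at 52.9% on each array. The small series A_65 had 15 of 20 probes well above background on each array. The share 2-fold apart in either direction, among probes above background on at least 1 array, was 3.55% in A_55 (19 higher and 30 lower of 1379), against 3.82% of all probes. It was 4.26% in A_52 (3 and 5 of 188), 2.52% in A_66 (2 and 1 of 119) and 5.26% in A_51 (0 and 5 of 95), and 0 of 15 in A_65. The smaller series hold too few such probes to set these shares apart.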

How the data were processed

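Mouse retina RNA from 2 groups was measured on 1 Agilent array each. The authors deposited scanner intensity values written by Agilent Feature Extraction 11.5.1.1 with protocol GE1_1105_Oct12, for an array design built on mm9, per the file headers; the software's 0 or 1 calls for each spot (other columns) came with them. Their deposited intensity table is the processed signal times a constant for each array (log2 1.31 and 1.37); nothing used here says why.

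Levels are log2 processed signals after division by the 75th percentile of each array (574 and 553), taken over 59305 non-control spots per array, without flagged outlier spots (119 and 163); spots of a probe were averaged on the log2 scale. A probe counts as detected when over 50% of its spots were called well above background. Counts use a threshold of 2-fold, without a test. Normalizations used limma 3.58.1 in R 4.3.3. The counting step was tested on simulated data that gave both arrays the same calls, so the rule for bounds was not part of that test. The number of arrays limits the precision.

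The rule for the members uses no measured value, but it and the lists were chosen with earlier results of these data known. Probes to be named were the 15 highest, 15 lowest, 10 brightest and repeated ones; of probes past 2-fold only 2 with each direction are named, because no gene symbol could be matched. The transcripts with the widest range and the most probes were named after their values were seen. For want of symbols the planned classes by gene symbol were not run. The analysis by array row was chosen after seeing the data.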

Additional observations from a re-analysis of the deposited data

How the results depend on the processing

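The counts of 24 higher and 41 lower probes rested on how dim spots were handled. Normexp gave 6 and 8, probes above background on both arrays alone 11 and 17, a mean signal at or above the median of all probes 10 and 16, no filter 104 and 123, and the software's weaker call, positive and significant, also 104 and 123. By construction, a 1.5-fold threshold counted 61 and 70 probes, and a 4-fold threshold 5 and 14 of 1796. At 4-fold the counts over all probes were 184 and 193 of 34544. Counts over all probes are not given for the 1.5-fold threshold, normexp, no filter, the mean signal setting or the weaker call. Settings chosen after seeing the data gave 45 higher with the measured difference in place of the bound, 48 higher with the median pixel signal less local background (22 and 38 of the probes counted in the main setting were kept), and 8 higher and 4 lower in rows 193 to 384 alone. Median scaling, the 75th percentile over detected spots, quantile normalization, cyclic loess and the authors' table gave 25 or 26 higher and 40 lower. Under these and normexp the median difference stayed between -0.04 and -0.01, and no probe counted in the main setting took the opposite sign. For median scaling, the other 75th percentile and the authors' table this was fixed in advance. Each shifts every difference by the same small amount, too little to reverse a 2-fold difference. The weaker call raised the detected shares to 76.4% on the WT and 77.3% on the KO array; outlier spots and the rule for repeated spots left them at 58.0% and 59.1%. Except for 3 changes under normexp, the 4 named differences moved by less than the pooled SD of repeated spots of other probes at their level. Signal over background limits the dim probes. No paired analysis was possible because a single array stands for each group.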
